A study of Mus musculus with 6 samples.

Results

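The comparison described here asks how the chromatin profile of FK866-treated mouse ILC2s differed when succinate was added as well. It rests on 4 of the 6 CUT&Tag libraries of the series: 2 labelled FK866 and 2 labelled FK866 plus succinate. The other 2, labelled Control, received neither agent and are given beside the main results as the untreated level. All cells were group 2 innate lymphoid cells (ILC2s) sorted from the colon and grown with the cytokines IL-33 and IL-25, which activate ILC2s, and IL-7 and IL-2, which sustain lymphocytes. The sources used here name no mouse strain, age, dose, time or antibody, so a peak is a stretch enriched for an unnamed chromatin target. Nothing in the labels says whether the 2 libraries of a group came from separate cultures or animals, so every p-value measures only the spread between these libraries, which may be technical. Overlapping peaks of the 4 lists on chromosomes 1 to 19, X and Y merged into 87054 regions, against 101435 for all 6 lists. Of 21887 protein-coding genes, 15702 had a peak in at least 1 of the 4 lists, within the gene span (mm10 coordinates) or 2 kb on either side.

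FK866 blocks NAMPT, the enzyme that limits the rate at which cells rebuild NAD from nicotinamide. NAD accepts electrons in glycolysis and the tricarboxylic acid (TCA) cycle and is consumed by sirtuins and poly-ADP-ribose polymerases. Succinate is a TCA cycle intermediate that succinate dehydrogenase oxidises for the respiratory chain, and it is also a product of the 2-oxoglutarate dioxygenases that demethylate histones and oxidise methylated DNA. ILC2s are tissue lymphocytes that answer IL-25 and IL-33 by secreting IL-5 and IL-13 under the transcription factor GATA3.

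The deposited peak lists held 40320 and 43468 peaks in the FK866 libraries, 45446 and 56361 in FK866 plus succinate, and 50489 and 41023 in Control. Read depth is unknown. The longer lists also held more weak peaks: 55.4% and 47.6% of the FK866 plus succinate peaks had an adjusted p under 0.05 in the authors' values, against 70.1% and 61.8% for FK866. The 11 ILC2 markers, among them Gata3, Il1rl1 and Il17rb, had peaks in every library. With 2 libraries against 2, the smallest two-sided p of an exact permutation test is 0.333, so presence and absence of peaks are described without a p-value. Fewer cells carrying a peak and less signal per cell cannot be told apart in such bulk libraries.

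Regions with a peak in each FK866 plus succinate list but none in the FK866 lists, called gained here, numbered 2783, or 3.2% of the 87054. The reverse pattern, called lost, held 1735 regions, or 1.99%. For scale, the 4 patterns that pair 1 FK866 library with 1 FK866 plus succinate library held between 1562 and 2044 regions each, so the lost count lay inside that range and the gained count above it. Peaks found in the second FK866 plus succinate library alone covered 20195 regions, the most of any single library. The balance between gained and lost regions turned with the lists used: 1524 gained and 2131 lost when every list was cut to the length of the shortest, and 505 and 1275 with peaks of an adjusted p under 0.05. Gained regions lay 15.1% near a gene end (within 2 kb), 52.9% elsewhere inside a gene and 32.0% outside genes, against 19.7%, 53.3% and 27.1% for lost regions, while 52.9% of the 23255 regions shared by all 4 libraries were near a gene end. Both Control libraries had a peak in 13.4% of the gained regions and in 29.0% of the lost regions, beside 15.2% to 23.1% in the 4 mixed patterns.

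Counted by gene, 144 genes (0.917% of 15702) were gained and 69 (0.439%) were lost, and 14115 were covered in all 4 libraries. The 4 mixed patterns held between 29 and 79 genes, so the lost count again lay within them. Both Control libraries had a peak at 44 of the gained genes and at 37 of the lost genes, and neither had one at 43 and 4. Lists cut to equal length gave 82 gained and 132 lost genes, of which 73 and 64 were among the 144 and 69. The stricter peak lists (adjusted p under 0.05) yielded 55 and 179, of which 17 and 26 were.

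Many interferon-stimulated genes had wider or additional peaks when succinate was present. The list holds antiviral genes that cells switch on through interferon receptors and STAT proteins, and 28 of its 30 genes were found in the gene table. Of these, 19 had a peak in all 4 libraries and 4 had none, and 22 entered the test of bases under peaks. In 12 of the 22, both FK866 plus succinate libraries had more bases under peaks than both FK866 libraries, where 17.9% of all 15362 genes tested did; in 3 they had fewer, where 21.8% did. The same 12 genes were also above both Control libraries, as were 7.52% of all genes. The median difference over the list was 0.16 on the log2(bases + 200) scale, against -0.01 over all genes. No member passed limma's test after Benjamini-Hochberg adjustment, and 1 did when the trend in limma's eBayes was left out. At an unadjusted p under 0.05, 8 members were higher and 0 lower, where 4.73% and 4.12% of all genes were higher and lower. The 12 and the 8 both include Ifi206, which entered the test only through the succinate libraries. Among the 19 members with a peak in every library of the fit, 6 were higher and 0 lower, and the median was 0.0865. The list was drawn up with earlier results of these libraries known, so its direction is a description and not independent evidence.

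**Figure D1:**
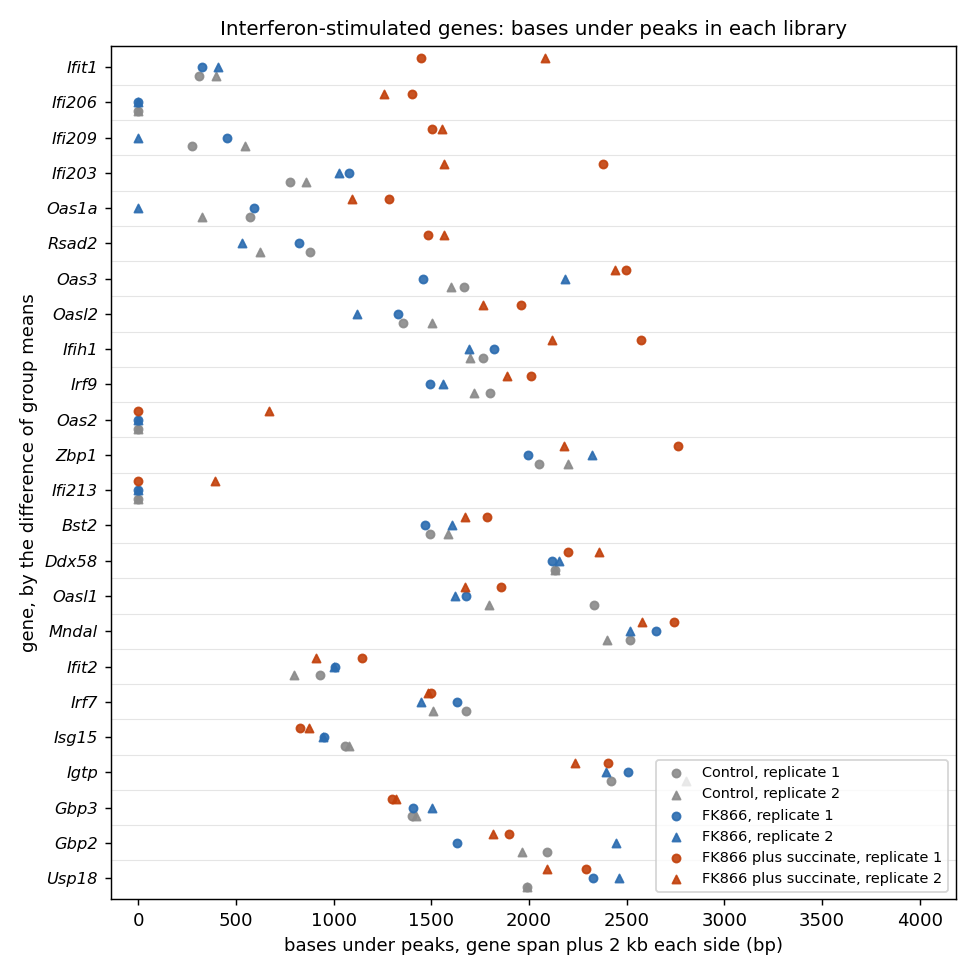
Bases under peaks (x axis, bp) at each interferon-stimulated gene with a peak in at least 1 library (y axis), over the gene span plus 2 kb on each side. Each point is 1 library; Ifit1, Ifi206 and Ifi209 sit at 1259 bp or more in both FK866 plus succinate libraries and at 547 bp or less in the 4 others.

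The member with the strongest new peaks was Ifi206 (chr1:173468485-173491318), a p200-family gene of the kind that senses DNA. It had 1403 and 1259 bp under peaks in FK866 plus succinate and no peak in the FK866 and Control libraries, so it entered the test only through the succinate libraries. Its neighbour Ifi209 had 1504 and 1554 bp with succinate, 453 and 0 bp with FK866 alone, and 274 and 547 bp in Control. Ifi203, also of this chromosome 1 cluster, had 2379 and 1563 bp against 1081 and 1029 bp, with 778 and 861 bp in Control. In all 3 the succinate libraries lay above every other library without overlap. Ifi213 had 395 bp in the second succinate library only, Ifi204 and Ifi205 had no peak in any library, and Mndal overlapped, with 2743 and 2576 bp against 2649 and 2517 bp. These are closely similar genes, at which short reads align less uniquely, so single-gene values here are uncertain.

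Among genes of the cytosolic RNA response, some members differed between the groups and others overlapped. Ifit1, which binds viral RNA, had 1448 and 2082 bp in FK866 plus succinate, 326 and 408 bp in FK866 and 311 and 398 bp in Control, a difference of 1.78 on the log2 scale (SE 0.23; limma adjusted p = 0.301). Both succinate libraries lay far above the other 4. Rsad2, encoding the antiviral enzyme viperin, had 1483 and 1566 bp against 823 and 533 bp, with 882 and 626 bp in Control (log2 difference 0.99, SE 0.23; limma adjusted p = 0.416). Oasl2, of the oligoadenylate synthetase family, had 1959 and 1767 bp against 1331 and 1120 bp, and the RNA sensor gene Ifih1 had 2572 and 2120 bp against 1819 and 1691 bp. Irf9, a subunit of the factor that type I interferon activates, had 2011 and 1889 bp against 1495 and 1558 bp. In these 3 the groups did not overlap, and both Control libraries lay below both succinate libraries. Other members did not follow: Ifit2 had 1146 and 909 bp against 1005 and 1002 bp, Isg15 had 828 and 874 bp against 949 and 944 bp, and Usp18 had 2291 and 2093 bp against 2329 and 2460 bp.

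The promoter windows of 3 of these genes are shown for the sequence at their transcript starts. All 3 hold a match to an interferon response half-element (TTCNNTTTC, either strand), and capitals mark each match. At Ifi206 the window overlaps the end of the changed peak, and at Ifit1 and Rsad2 most or all added bases lay outside it. The windows are RefSeq windows of 300 bases (GRCm38.p6, the mm10 coordinates), from 250 bases before to 50 after a transcript start. Ifi206 is at chr1:173491269-173491568 on the minus strand, Ifit1 at chr19:34640639-34640938 on the plus strand and Rsad2 at chr12:26456403-26456702 on the minus strand.
Ifi206: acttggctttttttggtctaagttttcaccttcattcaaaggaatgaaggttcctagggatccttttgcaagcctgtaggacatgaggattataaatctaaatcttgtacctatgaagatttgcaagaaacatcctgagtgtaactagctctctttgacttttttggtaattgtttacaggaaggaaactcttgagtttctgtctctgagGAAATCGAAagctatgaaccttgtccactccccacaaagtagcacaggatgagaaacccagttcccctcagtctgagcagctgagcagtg
Ifit1: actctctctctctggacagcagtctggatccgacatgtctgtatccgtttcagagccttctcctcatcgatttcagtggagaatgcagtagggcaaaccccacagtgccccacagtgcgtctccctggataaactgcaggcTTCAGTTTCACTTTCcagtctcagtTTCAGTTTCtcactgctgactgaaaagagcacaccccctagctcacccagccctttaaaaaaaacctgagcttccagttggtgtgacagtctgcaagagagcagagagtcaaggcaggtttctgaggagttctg
Rsad2: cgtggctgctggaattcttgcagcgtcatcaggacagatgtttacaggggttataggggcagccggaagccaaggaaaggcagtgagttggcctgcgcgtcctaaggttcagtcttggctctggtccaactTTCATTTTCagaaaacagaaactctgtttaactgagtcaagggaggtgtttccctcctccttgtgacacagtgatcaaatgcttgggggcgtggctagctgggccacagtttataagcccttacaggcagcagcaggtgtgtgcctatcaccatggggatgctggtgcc
The Ifi206 window was covered over 64 and 259 bp in the succinate libraries and over 0 bp in the 4 others. Its marked half-element lay outside the covered bases of the first succinate library. At Ifit1 the window was covered over 196 to 300 bp in the 4 other libraries and over 300 bp in both succinate libraries. Most of the added bases at Ifit1 thus lay beyond the window. The Rsad2 window was fully covered in all 6 libraries, so the added bases at Rsad2 lay beyond it. The half-element was found in 19 of 29 windows of the list, from 24 genes, against 8.15% of all 21263 windows. Of the other genes named above as higher with succinate, Ifih1 and Ifi203 had a match, and Irf9, Oasl2 and Ifi209 had none. Isg15, Ifit3 and Ifi205 had matches in windows that no library covered. A match is a description of letters, not of binding.

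Outside this list, Trim30a, Trim6, Ifi27l2a and Phf11a were among the genes named for their rank by p or peak strength. Trim30a (chr7:104409025-104465193), a tripartite-motif gene, had 3817 and 3970 bp under peaks in FK866 plus succinate, 1946 and 1743 bp in FK866 and 1541 and 1560 bp in Control. It was 2.11-fold higher than FK866 (3894 ± 108 against 1845 ± 144 bp, SD, n = 2 each; log2 difference 1.00, SE 0.09, limma adjusted p = 0.294), the smallest p among genes with a peak in all 4 libraries that were higher. Trim6, a ubiquitin ligase gene of the same chromosome 7 cluster, had 741 and 929 bp with succinate and no peak in the 4 other libraries. Ifi27l2a had 2048 and 2101 bp against 1026 and 1086 bp, with 1626 and 1512 bp in Control, and Phf11a had 273 and 884 bp against none in the 4 others. At Trim6 and Phf11a, as at Ifi206, the succinate libraries were the only ones with a peak.

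Other gained genes were covered in Control too. S1pr3 (chr13:51408618-51422797), a receptor for the lipid sphingosine-1-phosphate, had 756 and 960 bp in FK866 plus succinate, none in FK866, and 634 and 382 bp in Control. Tnfsf4 (chr1:161395438-161418206), which encodes the costimulatory ligand OX40L, had 404 and 625 bp, none, and 411 and 295 bp. Hrh4, a histamine receptor gene, had 700 and 583 bp, none, and 818 and 274 bp. Serpina3g, a protease inhibitor gene, had 491 and 1369 bp, none, and 662 and 0 bp. At the first 3 of these the FK866 libraries were the only ones without a peak. The rest of the first 15 gained genes by peak strength were Mtarc1, Calhm1, Ttc9b, Apon, Aqp5, Col6a2, Rhoj and Proz. Ttc9b, Apon, Aqp5, Col6a2, Rhoj and Proz had a peak in both Control libraries, Mtarc1 in 1 of them and Calhm1 in neither.

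Taken as regions, the gained peaks of highest rank were led by chr1:173490258-173491527 at the end of Ifi206, with 1075 and 1259 bp. The next was chr4:102624618-102625467, 17343 bp outside Pde4b, a cyclic AMP phosphodiesterase gene. It had 516 and 850 bp with succinate, none with FK866 and 403 and 375 bp in Control. A promoter window of Pde4b itself (chr4:102587308-102587607) went the other way and was lost. It had 300 and 300 bp in FK866, none with succinate and 93 and 292 bp in Control. Inside Rasgrf1, chr9:89972074-89973152 had 824 and 1079 bp, none, and 739 and 425 bp. Beside Bex6, chr16:32190090-32190936 had 812 and 847 bp and no peak in the 4 other libraries. Lost regions included chr4:117124454-117125036 at the ends of Btbd19 and Tctex1d4, with 583 and 515 bp in FK866, none with succinate and 576 and 486 bp in Control. Also lost were chr5:100500743-100501313 near Lin54, a cell-cycle repressor subunit gene (571 and 429 bp in FK866), and chr8:119425556-119426649 at Osgin1 (884 and 1094 bp), both covered in both Control libraries. Pde4b, Rasgrf1, Btbd19, Tctex1d4, Lin54 and Osgin1 regions therefore had peaks in both Control libraries, and the Bex6 and Ifi206 regions in neither.

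The lost genes are given in the order of their peak strength. Zfp385b (chr2:77410622-77817706), a zinc finger gene, had 1106 and 399 bp in FK866, none with succinate and 834 and 875 bp in Control. Barx2, a homeobox gene, had 829 and 1056 bp, none, and 846 and 560 bp. Irx4, of the Iroquois homeobox family, had 1043 and 732 bp, none, and 1271 and 1752 bp. Kirrel, which encodes a cell adhesion molecule, had 783 and 621 bp, none, and 1062 and 931 bp. In these 4 the succinate libraries were the only ones without a peak, and the same held for Khdrbs3, Mark1, Wnt7a, Tcf15, Vstm2l and Morc4 among the first 15. The basic helix-loop-helix gene Twist1 had 933 and 687 bp in FK866, none with succinate, and 0 and 393 bp in Control. Lmo1, Tspan7 and Gm614 likewise had a peak in 1 Control library.

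The list of 30 developmental regulators holds transcription factor genes such as the Pax, Hox and Lhx families, and Wnt signalling genes, which pattern embryos. Of these, 20 had a peak in all 4 libraries and 5 had none. Another 3 were lost and 0 gained, where 0.439% and 0.917% of the 15702 genes with a peak were. Of 24 tested, both FK866 plus succinate libraries lay below both FK866 libraries in 12 and above them in 2, beside the 21.8% and 17.9% of all genes. They lay below all 4 other libraries in 10 and above them in 0, where 13.6% and 7.52% of all genes did. The median difference was -0.13 on the log2(bases + 200) scale. No member passed limma's adjusted test. At limma's unadjusted p under 0.05, 6 were lower and 1 higher, where 4.12% and 4.73% of all genes were. When the fit held the 4 libraries without Control, 2 were lower. Among the 20 members with a peak in every library of the fit, 1 was lower and 1 higher, and the median was -0.08. Without the trend in limma's eBayes, 2 members passed the adjusted test. This list too was drawn up with earlier results of these libraries known.

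**Figure D2:**
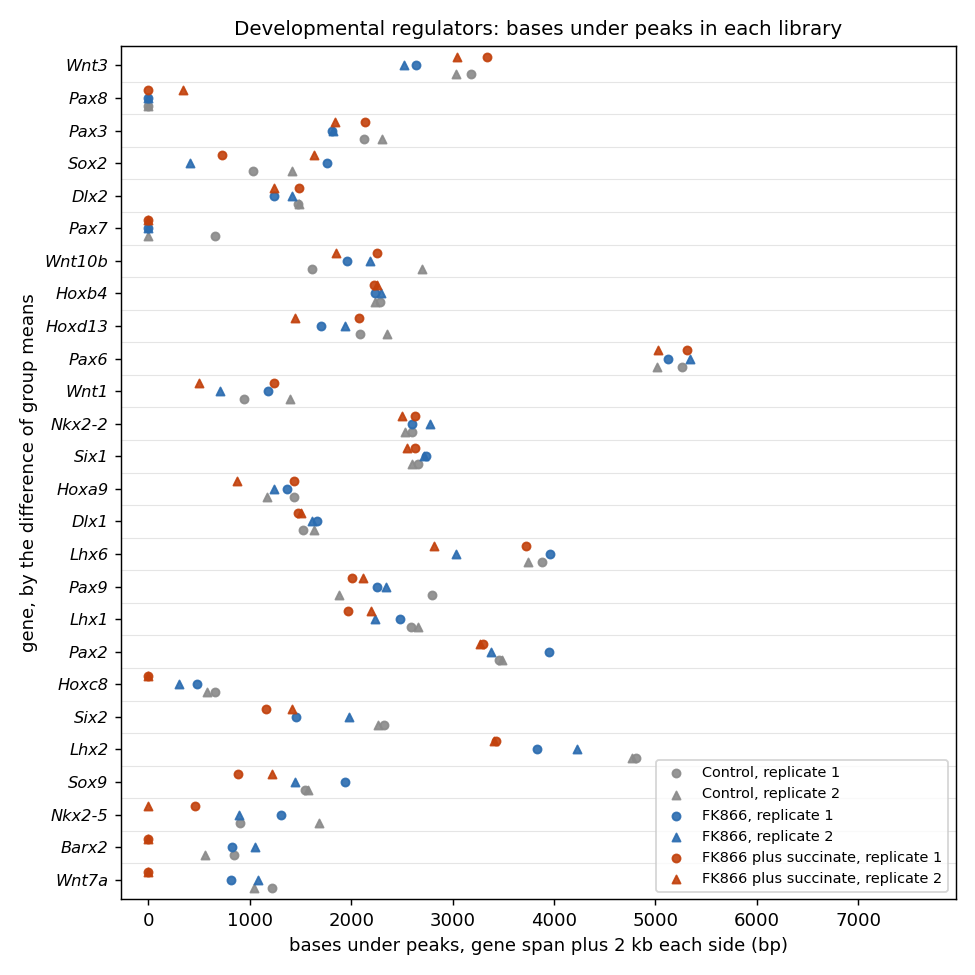
Bases under peaks (x axis, bp) at each developmental regulator with a peak in at least 1 library (y axis), over the gene span plus 2 kb on each side. Each point is 1 library; Wnt7a, Barx2 and Hoxc8 are at 0 bp in both FK866 plus succinate libraries and at 303 bp or more in the 4 others.

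Wnt7a (chr6:91363981-91411353), a secreted signalling protein gene, had 813 and 1083 bp in FK866, none with succinate and 1218 and 1044 bp in Control. Hoxc8 had 477 and 303 bp, none, and 657 and 576 bp. Nkx2-5, a cardiac homeobox gene, had 1304 and 894 bp in FK866, 458 and 0 bp with succinate and 908 and 1680 bp in Control. In these 3 the groups did not overlap. Sox9 had 1936 and 1451 bp against 883 and 1223 bp, and Lhx2 had 3833 and 4229 bp against 3425 and 3404 bp. The reverse was seen at Wnt3, with 2640 and 2525 bp in FK866 against 3336 and 3044 bp with succinate and 3184 and 3030 bp in Control, and at Pax3, with 1814 and 1822 bp against 2133 and 1836 bp. Many members overlapped, such as Pax6 with 5123 and 5338 bp against 5311 and 5030 bp.

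Promoters that lost or gained a peak differed in sequence composition, which the presence calls did not use. CpG dinucleotides are sparse in the mouse genome except in CpG islands, which mark most housekeeping and developmental promoters. Among 21263 RefSeq promoter windows of 17492 genes, the median was 13 CpG per 300 bases, with 22 in the 11479 windows covered in all 4 libraries and 3 in those with none. The 101 lost windows (97 genes) had a median of 20 CpG, and the 44 gained windows (42 genes) a median of 5.5. The 4 mixed patterns, of 38 to 57 windows, had medians between 7 and 14. These were 14 and 12 for FK866 1 paired with FK866 plus succinate 1 and 2, and 10 and 7 for FK866 2. The medians thus fell in the library order FK866 1, FK866 2, FK866 plus succinate 1, FK866 plus succinate 2. The share of peaks with an adjusted p under 0.05 fell in the same order. Under such an order the lost and gained pairs lie at the ends, so the mixed patterns give no noise range here. Whether peak quality plays a part was not tested. Windows with 21 CpG or more made up 48.5% of the lost set, 2.27% of the gained set and 10.5% to 29.1% of the mixed sets. The medians of lost and gained windows were 19 and 5 with lists cut to equal length and 20 and 5 with peaks of an adjusted p under 0.05. The lost median was 10 without FK866 replicate 1 and 13 without FK866 replicate 2, inside the range of the mixed patterns. Windows were called by their own peaks, so a lost or gained window need not belong to a lost or gained gene. A lost window was held by 97 genes, while 69 genes were lost. Of the gained genes 110 of 144 had a RefSeq window, and of the lost genes 49 of 69. The unit is therefore the window, and some genes have several.

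**Figure D3:**
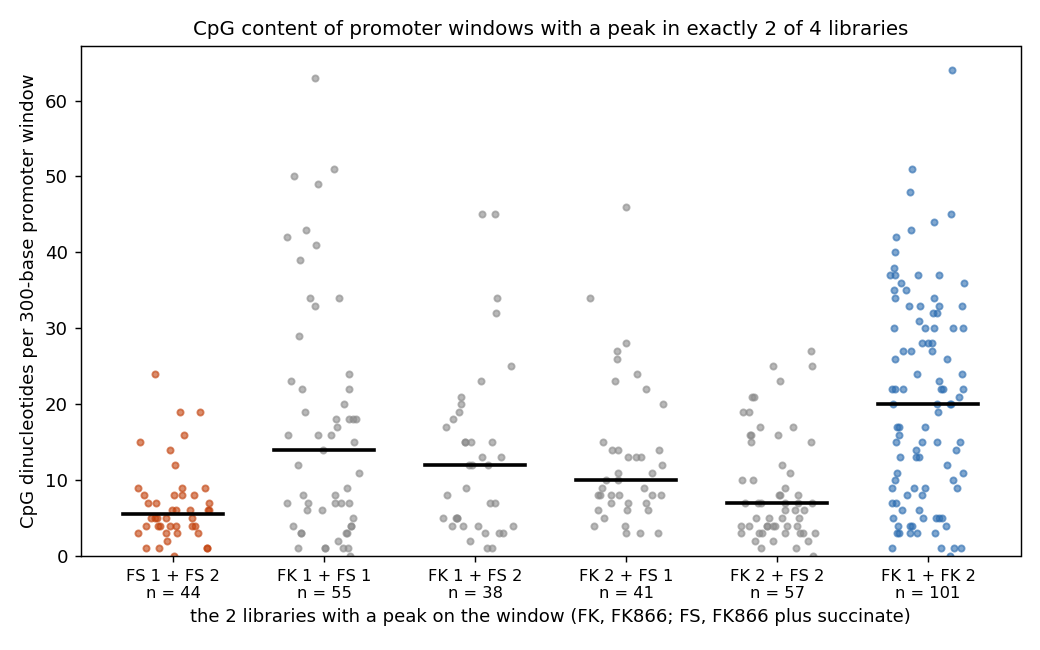
CpG dinucleotides per 300-base promoter window (y axis) for windows with a peak in exactly 2 of the 4 libraries, grouped by those 2 libraries (x axis). Points are windows and bars are medians; the median is 5.5 for the 2 FK866 plus succinate libraries, 20 for the 2 FK866 libraries and 7 to 14 for the 4 mixed pairs.

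Single windows are printed with every CpG in capitals, for 2 gained and 3 lost genes among the first of each set (RefSeq, GRCm38.p6). They are not typical of their sets. The 3 lost windows exceed the lost median of 20 CpG, and both gained windows exceed the gained median of 5.5. Windows with 6 CpG or fewer made up 20.8% of the lost set and 61.4% of the gained set. S1pr3 (chr13:51408368-51408667, plus strand, 14 CpG) and Trim6 (chr7:104218545-104218844, plus strand, 8 CpG) were gained; Zfp385b (chr2:77816767-77817066, minus strand, 43 CpG), Kirrel (chr3:87174488-87174787, minus strand, 28 CpG) and Wnt7a (chr6:91411304-91411603, minus strand, 42 CpG) were lost.
S1pr3: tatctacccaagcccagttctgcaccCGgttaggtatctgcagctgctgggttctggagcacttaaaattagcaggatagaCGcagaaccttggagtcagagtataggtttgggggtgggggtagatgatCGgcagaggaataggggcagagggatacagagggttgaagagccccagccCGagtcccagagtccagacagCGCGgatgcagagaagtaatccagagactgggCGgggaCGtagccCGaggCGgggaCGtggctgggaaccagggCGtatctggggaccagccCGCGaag
Trim6: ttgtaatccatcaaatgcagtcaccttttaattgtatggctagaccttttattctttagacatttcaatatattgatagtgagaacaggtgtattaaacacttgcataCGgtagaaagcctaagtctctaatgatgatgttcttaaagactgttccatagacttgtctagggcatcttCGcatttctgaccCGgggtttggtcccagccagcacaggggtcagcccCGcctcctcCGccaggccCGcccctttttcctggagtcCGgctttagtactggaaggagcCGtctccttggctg
Zfp385b: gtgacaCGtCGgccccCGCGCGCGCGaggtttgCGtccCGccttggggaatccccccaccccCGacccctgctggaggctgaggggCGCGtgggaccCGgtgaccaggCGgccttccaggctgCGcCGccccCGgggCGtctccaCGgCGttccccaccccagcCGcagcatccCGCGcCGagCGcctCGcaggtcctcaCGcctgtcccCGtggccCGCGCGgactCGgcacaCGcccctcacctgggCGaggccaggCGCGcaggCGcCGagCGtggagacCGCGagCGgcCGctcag
Kirrel: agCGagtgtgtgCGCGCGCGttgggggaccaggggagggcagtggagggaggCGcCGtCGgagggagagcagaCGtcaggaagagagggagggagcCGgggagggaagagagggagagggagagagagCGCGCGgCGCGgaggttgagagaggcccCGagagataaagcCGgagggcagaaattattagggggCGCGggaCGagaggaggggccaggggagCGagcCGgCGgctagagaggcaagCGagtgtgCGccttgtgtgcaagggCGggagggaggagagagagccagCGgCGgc
Wnt7a: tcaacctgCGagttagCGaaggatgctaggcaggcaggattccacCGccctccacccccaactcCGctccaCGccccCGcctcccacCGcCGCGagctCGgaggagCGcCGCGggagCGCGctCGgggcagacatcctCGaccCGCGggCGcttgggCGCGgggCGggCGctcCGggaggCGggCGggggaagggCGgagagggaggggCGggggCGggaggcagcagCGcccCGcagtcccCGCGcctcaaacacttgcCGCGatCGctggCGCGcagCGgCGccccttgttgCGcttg
The GC box (GGGCGG, either strand), which itself contains a CpG, was present in 54.5% of the lost windows, 36.4% of the gained windows, 35.1% to 56.4% of the mixed patterns and 46.2% of all windows. The ETS motif (CCGGAAG, either strand, also with a CpG) was in 6.93% of the lost windows and 0 of the 44 gained windows, against 0% to 7.32% of the mixed patterns and 11.6% of all windows. For both motifs the lost and gained shares lay within the range of the mixed patterns. By library, 93.3% and 92.7% of the 7151 windows with 21 CpG or more had a peak in FK866, 91.9% and 91.4% in FK866 plus succinate and 93.8% and 93.3% in Control. Both succinate libraries were below the 4 others in this class, and their mean share differed from the FK866 mean by -1.33 percentage points. In the 3841 windows with 2 CpG or fewer the shares overlapped, at 4.43% in both FK866 libraries and 4.35% and 4.89% with succinate.

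Regions shared by all 4 libraries had smaller median widths with succinate. Their median width under peaks was 1287 and 1271 bp in FK866, 1233 and 1210 bp in FK866 plus succinate and 1242 and 1250 bp in Control. In 30.5% of the 23255 regions both succinate libraries were narrower than both FK866 libraries, and in 10.9% both were wider. Near gene ends the shares were 37.8% and 8.10% (12299 regions), and outside genes they were 20.3% and 15.7%. At shared regions over a promoter window the narrower share was 28.1% at 0 to 6 CpG and 28.2% at 7 to 12. It was 44.5% at 21 to 30 CpG and 43.3% at 31 to 67. The wider share was 15.2%, 11.6%, 6.01% and 5.90% in these classes. Read depth is unknown, and its part in the narrower widths was not tested.

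**Figure D4:**
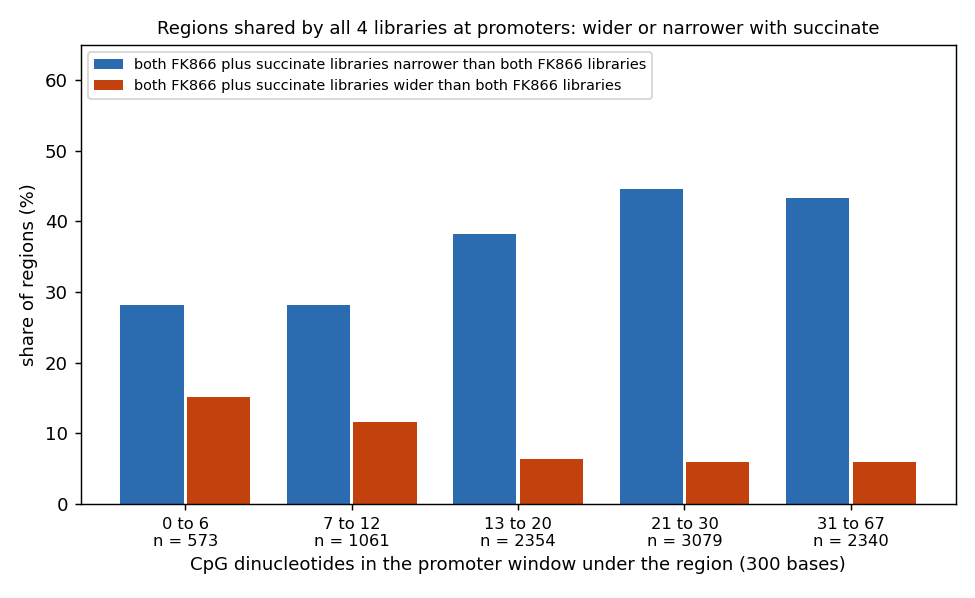
Share of regions (y axis, %) in which both FK866 plus succinate libraries were narrower (blue) or wider (orange) than both FK866 libraries, among regions with a peak in all 4 libraries at a promoter window, by the window's CpG count (x axis). The narrower share is 28.1% at 0 to 6 CpG, 28.2% at 7 to 12, 38.1% at 13 to 20, 44.5% at 21 to 30 and 43.3% at 31 to 67.

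The test of bases under peaks, across 15362 genes and all 6 libraries, found no gene past limma's threshold (adjusted p under 0.05), that is 0% called, with the smallest adjusted p at 0.294. At an unadjusted p under 0.05, 727 genes were higher and 633 lower with succinate. This balance also turned with the lists: 399 higher and 1106 lower with lists of equal length, and 275 and 1351 with peaks of an adjusted p under 0.05, where 1 gene was called higher (Trim30a) and 21 lower, Mpzl2 among them. A fit over 41455 regions, with the 4 libraries alone, called 0 regions by limma, and 6682 had an unadjusted p under 0.05. With all 6 libraries in the fit it called 1136 higher and 707 lower. The regions were made from the 4 lists, so Control peaks were cut at their edges in that fit. Gained and lost regions entered both fits only through the group that had the peaks. As no gene passed, single genes are given as values.

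Among genes with a peak in all 4 libraries, those with the smallest p on the higher side after Trim30a were Lin28a, Zfat, Zfr2, Ifi27l2a, Gm43707, Pepd, Ep400, Asl and Ifit1. Zfat, a zinc finger gene of lymphocytes, had 3815 and 3956 bp with succinate, 2065 and 2204 bp with FK866 and 3488 and 3485 bp in Control, 1.82-fold over FK866. Ep400, a chromatin remodeller gene, had 3518 and 3584 bp against 1738 and 2059 bp, with 2939 and 2910 bp in Control. Asl, which makes arginine from argininosuccinate, had 2980 and 2860 bp against 1848 and 1782 bp, with 2401 and 2534 bp in Control. In all 3 the Control libraries lay between the groups. Lin28a, an RNA-binding pluripotency factor gene, had 1866 and 2508 bp against 359 and 423 bp, but it and Zfr2 turned to the lower side with peaks of an adjusted p under 0.05.

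On the lower side the first was Mpzl2, an adhesion molecule gene, with 880 and 914 bp with succinate, 2024 and 1951 bp with FK866 and 1412 and 1322 bp in Control. It was 2.22-fold lower than FK866 (897 ± 24.0 against 1988 ± 51.6 bp, SD, n = 2 each; limma adjusted p = 0.294). Tubb3, a tubulin gene, had 1108 and 986 bp against 2336 and 2141 bp, with 2382 and 2305 bp in Control. The homeobox gene Msx2 had 395 and 298 bp against 1085 and 1180 bp, with 1107 and 1011 bp in Control, and the helix-loop-helix gene Ascl2 had 768 and 928 bp against 2510 and 1979 bp, with 1797 and 1640 bp. At these 4 the succinate libraries lay below all others. Gm17266, Efna2, Eef1akmt2, Slc30a2, Ush1g and Myo15b completed the first 10.

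Genes of the metabolism that the agents act on were mostly covered in all 4 libraries, with 17 of 19 in NAD synthesis and 12 of 14 in succinate dehydrogenase and succinate handling. Nampt, the target of FK866, had 2460 and 3084 bp in FK866, 2008 and 3653 bp with succinate and 2123 and 2717 bp in Control, so the groups overlapped. Sdha, Sdhb, Sdhc and Sdhd, the 4 subunits of succinate dehydrogenase, had 1457 and 1870, 2970 and 3074, 1216 and 1770, and 1887 and 2137 bp in FK866. With succinate they had 1815 and 1856, 2724 and 2504, 1458 and 2966, and 1909 and 1675 bp. Only Sdhb did not overlap, and it was lower with succinate. The succinate receptor gene Sucnr1 had no peak in any library. Of the 13 tested genes of succinate dehydrogenase and succinate handling, 3 had both succinate libraries above both FK866 libraries and 2 below, near the 17.9% and 21.8% of all genes, and the assembly factor gene Sdhaf2 (4142 and 2906 bp against 2277 and 2540 bp) had an unadjusted p under 0.05.

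Among the other TCA cycle enzymes, 5 of 19 were above and 7 below, beside the 17.9% and 21.8% of all genes. Idh3a, a subunit of NAD-dependent isocitrate dehydrogenase, had 3229 and 2175 bp with succinate against 1271 and 1554 bp, whereas Idh3g of the same enzyme had 2153 and 2134 bp against 3118 and 2951 bp and Cs, citrate synthase, 3432 and 3251 bp against 5024 and 4378 bp. The groups of each gene did not overlap, and they pointed both ways within 1 enzyme. In the respiratory chain and ATP synthase 4 of 25 were above and 12 below, with Atp5o at 1644 and 1205 bp against 2721 and 2173 bp and Ndufs1, of complex I, at 2993 and 3065 bp against 2135 and 2365 bp. Among cytosolic ribosomal protein genes 1 of 22 was above and 12 below, led by Rpl3 with 2471 and 2057 bp against 3539 and 3396 bp. The median differences of these 2 lists, -0.07 and -0.08, were below 0 under each of the 14 alternatives, as were those of glycolysis, fatty acid, ILC2 cytokine, ILC2 receptor, cell cycle and T cell lists; with peaks of an adjusted p under 0.05 the median of all genes was itself -0.0665.

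The remaining metabolic lists are set beside the background of 17.9% above and 21.8% below. Glycolysis, NAD-using enzymes and 2-oxoglutarate dioxygenases were near it. NAD synthesis was at 11.8% and 35.3%, the fatty acid list at 9.09% and 31.8%, and the cell cycle list at 11.5% and 30.8%. The counts above and below were 3 and 4 of 20 in glycolysis, with Eno1, Pkm and Slc2a1 lower at an unadjusted p under 0.05. They were 2 and 6 of 17 in NAD synthesis, 3 and 3 of 17 among NAD-using enzymes, and 6 and 5 of 26 among 2-oxoglutarate dioxygenases. Within the dioxygenases the histone demethylase gene Kdm4a had 4361 and 5811 bp with succinate against 3659 and 2891 bp, and Jmjd6 had 2354 and 2329 bp against 3133 and 2793 bp. Fatty acid uptake, storage and oxidation had 2 and 7 of 22, where Cpt1b, a carnitine palmitoyltransferase, had 712 and 694 bp against 287 and 0 bp and Dgat1, a triglyceride synthase, had 2080 and 1905 bp against 2723 and 3053 bp. Cell cycle and DNA replication had 3 and 8 of 26, with E2f2 and Mcm3 lower at an unadjusted p under 0.05. Hif1a, whose protein prolyl hydroxylases mark for decay, had 4832 and 6429 bp with succinate against 4675 and 4940 bp, which overlap.

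**Figure D5:**
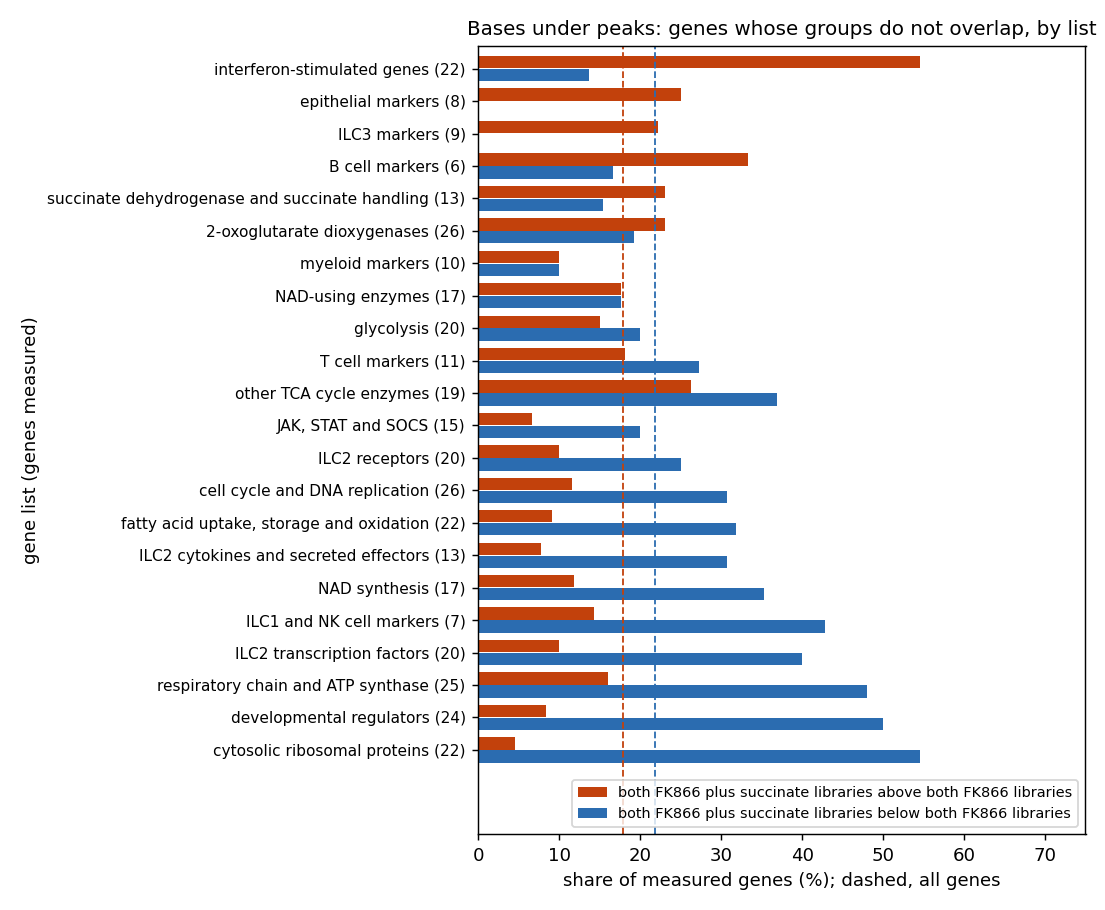
Share of each list's measured genes (x axis, %) in which both FK866 plus succinate libraries had more (orange) or fewer (blue) bases under peaks than both FK866 libraries, by list (y axis, number measured in brackets). Dashed lines give the same shares over all genes, 17.9% and 21.8%; the interferon-stimulated list reaches 54.5% above.

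Il5, Il13, Gata3, Il1rl1, Il17rb and Arg1, which mark ILC2s, had a peak in all 4 libraries, although Il13 and Gata3 each had 1 lost region within them. Over the lists, 11 of 14 ILC2 cytokines and secreted effectors, 20 of 20 receptors and 19 of 20 transcription factors were covered in all 4. Il5 had 3412 and 3224 bp under peaks with succinate, 3578 and 3581 bp with FK866 and 3347 and 3417 bp in Control. Il13 had 3567 and 2654 bp, 4043 and 3986 bp, and 3906 and 3806 bp (log2 difference -0.36, SE 0.15; limma adjusted p = 0.578). Gata3 had 10929 and 9966 bp, 11595 and 11943 bp, and 11191 and 11895 bp. At these 3 both succinate libraries lay below both FK866 libraries, without passing the test. Il1rl1, the IL-33 receptor gene, had 8396 and 8094 bp against 7919 and 8297 bp, and Il17rb, of the IL-25 receptor, 3552 and 3299 bp against 2997 and 3479 bp; Arg1, arginase, had 2272 and 2549 bp against 3016 and 2118 bp. These overlapped. The counts above and below were 1 and 4 of 13 among ILC2 cytokines and secreted effectors and 2 and 5 of 20 among ILC2 receptors. They were 2 and 8 of 20 among ILC2 transcription factors, where Tox was higher at an unadjusted p under 0.05. Among JAK, STAT and SOCS genes they were 1 and 3 of 15. Over all genes the shares were 17.9% above and 21.8% below, beside 10% and 40% of the ILC2 transcription factors.

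Markers of other cell types were summed in each library. The sums overlapped between the groups except for the B cell markers, which were slightly higher with succinate. Over the 16 ILC1 and NK cell markers the summed bases were 13.3 and 13.1 kb in FK866 and 13.8 and 12.8 kb with succinate, with Ifng, Ncr1 and Klrd1 at 0 in every library. The 8 B cell markers had 7.18 and 7.10 kb against 7.56 and 7.38 kb, with Ms4a1 at 0 in every library. The 11 epithelial markers had 5.53 and 7.15 kb against 5.84 and 8.10 kb and the 11 myeloid markers 8.08 and 6.71 kb against 7.53 and 8.60 kb. The ILC3 markers had 17.4 and 18.8 kb against 17.6 and 22.8 kb and the T cell markers 27.9 and 29.5 kb against 26.0 and 29.4 kb. Gained genes on these lists were Il12rb2, the IL-12 receptor subunit (745 and 440 bp), the cytokine genes Il17f (394 and 401 bp) and Tslp (604 and 353 bp), and the B cell receptor inhibitor Cd22 (263 and 382 bp); all of them were covered in 1 or both Control libraries. Foxp3, of regulatory T cells, had 293 and 1056 bp with succinate against 1889 and 1772 bp, and the T cell receptor signalling genes Zap70 and Cd247 had 4974 and 4429 against 3585 and 3737 bp, and 5990 and 6694 against 4770 and 4908 bp. The fourth T cell marker with an unadjusted p under 0.05, Cd3d, had 2277 and 2288 bp against 2588 and 2824 bp. Of the ILC1 and NK cell markers, Il12rb2 was higher and Eomes lower at an unadjusted p under 0.05. Eomes had 2080 and 1877 bp with succinate, 2624 and 2696 bp with FK866 and 2820 and 2608 bp in Control. The counts above and below were 2 and 3 of 11 T cell, 1 and 3 of 7 ILC1 and NK cell and 2 and 0 of 9 ILC3 markers tested. They were 2 and 1 of 6 B cell, 1 and 1 of 10 myeloid and 2 and 0 of 8 epithelial markers. Over all genes the shares were 17.9% above and 21.8% below, and these lists are short. Whether these markers take part in any result above was not tested.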

How the data were processed

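Per the labels, CUT&Tag libraries were made from sorted, cultured colon ILC2s, and groups and replicate numbers come from the sample titles. Per the submitters' processing notes, the tools were cutadapt 1.9 and Bowtie2 2.5.0 and the build mm10; the sources used here name no peak caller. The authors deposited 1 list of peaks per library with 10 columns in the narrowPeak layout: a fold (ratio) over background, a −log10 p-value, a −log10 q-value (adjusted p) and a summit offset. These are relative to their own library and were used only to order or filter peaks within a list. Between 43 and 55 peaks a list on other sequences were left out.

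Peaks were merged where they overlapped by at least 1 bp; a gene was its span in the RefSeq table (GRCm38.p6) plus 2 kb on each side. Bases under peaks were tested as log2(bases + 200) with limma 3.58.1 (R 4.3.3; lmFit, eBayes with trend, Benjamini-Hochberg adjustment), on genes or regions with a peak in at least 2 libraries, with all 6 libraries in 3 groups for genes and the 4 libraries for regions. Fold changes on that scale understate changes of short peaks. The script was tested on simulated data. Tables were handled with Python 3.11.15, pandas 2.3.3 and numpy 2.4.6.

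The members and gene lists were chosen with earlier results of these data known. Named genes are the 15 gained and 15 lost genes and 10 gained and 10 lost regions whose weaker library had the highest within-list rank of −log10 p, the 10 smallest p in each direction, a fixed panel, and gained or lost list members; other list members were named after their values were seen, and 1 gene that the rule picks is not reported here. Presence counts were repeated with equal-length lists, stricter peaks, other overlaps and flanks and without each library, and the limma fits with other pseudocounts, filters, normalization and a replicate block.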

Additional observations from a re-analysis of the deposited data

How the results depend on the processing

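With lists cut to equal length, 1524 regions and 82 genes were gained and 132 genes lost, and limma's median difference over genes was -0.0554. With peaks of an adjusted p under 0.05, 505 regions and 55 genes were gained and 179 genes lost, limma called 22 genes at a median of -0.0665, and 3639 regions had an unadjusted p under 0.05. Keeping the higher-scoring 50% of peaks left 1082 regions gained and 272 lost, and counting non-coding genes too gave 395 genes gained and 176 lost. Without the trend in eBayes limma called 37 genes and 2907 regions. With all 6 libraries, where Control peaks were cut at the region edges, it called 1843 regions. A peak required in 1 library only gave 8 regions called, at a median of 0.0843. Quantile normalization gave a region median of 0.0049, and a peak required in all 4 libraries 2341 regions at an unadjusted p under 0.05. Leaving out 1 library, which relaxes the presence rule, gave 4316 to 23239 regions gained (most without FK866 plus succinate replicate 1), 3398 to 10939 lost (most without FK866 replicate 1), 269 to 492 genes gained and 142 to 212 lost. It also gave 0 to 2784 regions called, where the lone library of a group is assumed to vary like the others, and called 0 genes.

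The list and CpG alternatives were chosen after seeing the data. The interferon-stimulated median was above 0 and the developmental median below 0 under each of 14 alternatives. The ILC3 marker median was also above 0 under each. The interferon-stimulated median was 0.24 with a peak required in 1 library and 0.0865 with a peak required in all. It was 0.10 to 0.26 when 1 library was left out. The developmental median was -0.12 with equal-length lists and -0.13 with peaks of an adjusted p under 0.05, where all genes were at -0.0554 and -0.0665. Lost windows had a median of 10 to 19 CpG and gained windows 5 to 7 without 1 library, with the lowest lost value without FK866 replicate 1. No named gene passed limma's threshold in the main fit. Of 448 values for named genes under the alternatives, 446 again did not pass, 2 did and 16 changed sign. The 446 therefore do not measure how stable the differences are.

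With the replicate number as a block, limma called 0 genes (1202 at an unadjusted p under 0.05) and 0 regions (6362). Between FK866 and FK866 plus succinate, deviations of same-numbered libraries correlated at 0.02 over genes and 0.01 over regions. Between Control and FK866 plus succinate the value over genes was -0.12. Such values cannot tell whether same-numbered libraries shared a culture, an animal or a batch, and the labels give only the number. Read depth is not known, so no limit from counting can be given.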
